A study of Homo sapiens with 12 samples.

Results

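Cadherins are transmembrane proteins that hold neighbouring cells together through calcium-dependent contacts of their extracellular repeats. The tails of the classical members bind β-catenin and p120 catenin, and α-catenin and vinculin tie this complex to actin at the adherens junction. Human proximal tubule cells are known for carrying N-cadherin and cadherin-6 rather than the E-cadherin of the more distal nephron, and Ksp-cadherin is named for its restriction to the kidney.

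Of the 58735 genes in the count table, 8 were the cadherins described here, chosen by gene name with earlier results of these data known: CDH1, CDH2, CDH3, CDH4, CDH6, CDH11, CDH13 and CDH16. They were measured in HK-2, an immortalized line of human proximal tubular epithelium that is a single established line, with 3 samples in each of 4 groups. The Control group received water. The other groups received a drug for 48 h. The iodinated contrast medium iohexol was given at 75 mg I/mL, the DNA-crosslinking platinum compound cisplatin at 5 μM and the glycopeptide antibiotic vancomycin at 4 mM. All samples were grown in DMEM/F12 with serum and antibiotics. The comparisons ask how each drug changed the cadherins against the shared Control samples and where the drugs differed from each other. Nothing in the labels states that the replicates were separate cultures, so the p-values measure the spread between these samples only.

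Each sample held 14057282 to 18177109 counts. A level is given as CPM, the count scaled to the total of its sample times its TMM factor, and as CPM per kb of exon where genes are compared with each other. The TMM factors ran from 0.885 in the vancomycin group to 1.13 in the cisplatin group. The detection floor of 3 counts stood at 0.177 to 0.218 CPM per sample and covers counting error only. Of 12 proximal tubule markers, 6 had a mean of at least 1 CPM in some group. SLC22A6, the basolateral organic anion transporter, had 0 counts in all 12 samples, and the largest group mean of HNF4A was 0.109 CPM and that of LRP2 0.108 CPM, so several defining markers of the labelled cell type were at or near 0. PAX8, a kidney lineage factor, had group means from 131 CPM with cisplatin to 617 CPM with iohexol.

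Among the 8 cadherins, CDH6 and CDH2 had the highest levels in the Control group, and both fell with each of the 3 drugs. CDH6 fell 8.11-fold with cisplatin, 3.05-fold with iohexol and 1.40-fold with vancomycin, whereas CDH2 fell 2.08-fold, 1.73-fold and 1.88-fold. CDH16 rose 5.07-fold with iohexol and 2.90-fold with vancomycin. CDH3, at 1.06 CPM in Control, rose 4.18-fold with vancomycin, and only its vancomycin samples brought it into the test there. In RNA of whole cultures, fewer cells of a kind and less RNA per cell cannot be told apart.

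A gene was called when edgeR's quasi-likelihood test gave a Benjamini-Hochberg adjusted p under 0.05 over all genes tested. With iohexol 5 of the 8 cadherins passed the filter on low counts, 1 was called higher and 2 were called lower, while 11.2% of all genes tested were called higher and 9.77% lower. With cisplatin 4 were tested, 0 were called higher and 3 lower, against 29.2% of all genes higher and 30.6% lower. With vancomycin 5 were tested, 2 were called higher and 2 lower, against 29.0% higher and 28.8% lower. With the further limit of a log2 fold change above 1 or below -1, 2 cadherins were called for each drug, and 5.28%, 16.3% and 18.5% of all genes tested for iohexol, cisplatin and vancomycin passed it. Members that passed the filter only because of the group in which they were high had to differ, so these counts describe the genes tested and not all 8. CDH3, 1 of the 2 called higher with vancomycin, was such a member. Its Control samples, with 8, 15 and 25 counts, did not pass the filter by themselves, and against cisplatin CDH3 was not tested. It passed with vancomycin only through the vancomycin samples.

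**Figure D1:**
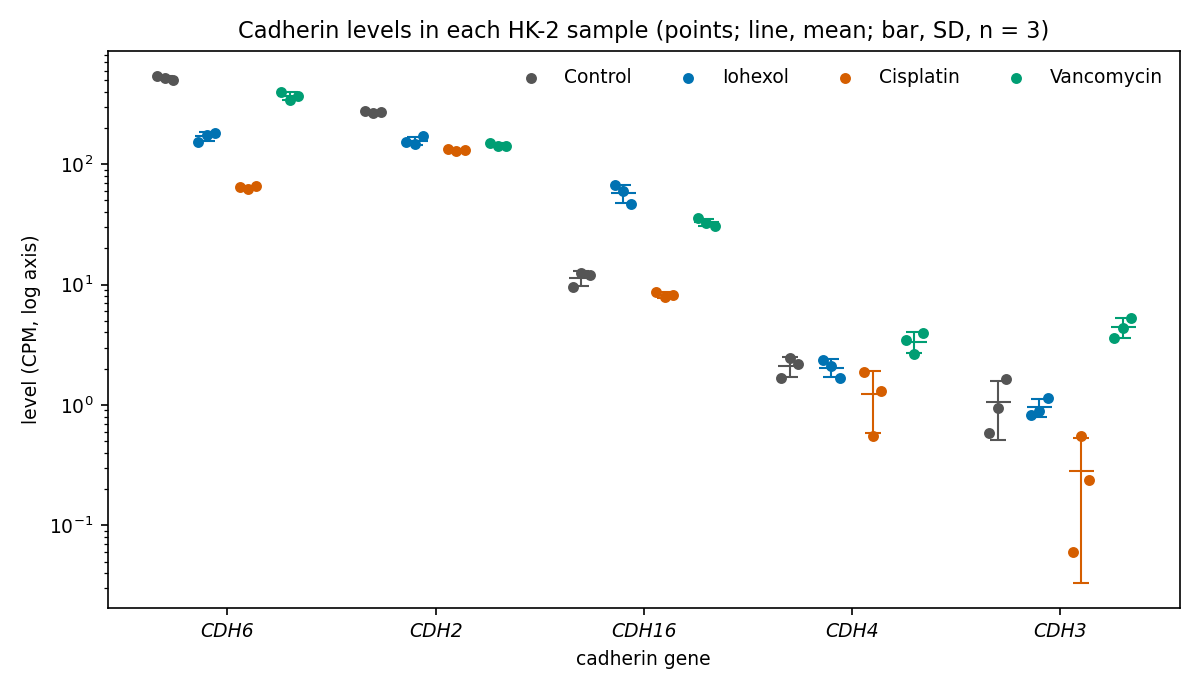
Level in CPM (log axis) of the 5 cadherins that passed the filter in at least 1 comparison. Points are the 12 samples, horizontal lines the group means and bars the SD (n = 3). CDH6 ran from 62.5 CPM in a cisplatin sample to 539 CPM in a Control sample, and the 4 groups of CDH6 and of CDH16 did not overlap.

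CDH6, or K-cadherin, is a type II classical cadherin of the fetal kidney and the proximal tubule. It lies on chromosome 5 (31193750 to 31329146, plus strand, GRCh38). Its level in the Control samples was 539, 517 and 504 CPM, and in the vancomycin samples 401, 341 and 369 CPM. In the iohexol samples it was 153, 175 and 183 CPM, and in the cisplatin samples 64.1, 62.5 and 65.7 CPM. The Control samples were highest and the cisplatin samples lowest, and no sample of any group reached the range of another group. The log2 fold change was -3.02 ± 0.06 (SE) with cisplatin (adjusted p = 1.2e-15), which ranked 1 by p among the 15876 genes tested. It was -1.59 ± 0.09 with iohexol (adjusted p = 3.5e-07) and -0.53 ± 0.09 with vancomycin (adjusted p = 1.5e-05). The annotation places 2 genes over CDH6, an antisense RNA with 0 to 4 counts per sample and the pseudogene DUX4L51 with 0 counts throughout. Of the 31-base sequences of CDH6, 10.0% also occur in another gene, and the reads behind them may have been counted elsewhere or discarded.

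CDH2, or N-cadherin, is the type I cadherin of proximal tubule junctions and of many mesenchymal and neural cells. It lies on chromosome 18 (27950966 to 28177446, minus strand). The Control samples held 278, 267 and 271 CPM. The iohexol samples held 152, 148 and 171 CPM, the cisplatin samples 134, 128 and 130.3 CPM, and the vancomycin samples 150.2, 142 and 142 CPM. Every drug sample lay below every Control sample, and among the drugs only the iohexol and the vancomycin ranges overlapped. The log2 fold change was -1.06 ± 0.06 with cisplatin (adjusted p = 6.46e-11), -0.95 ± 0.08 with vancomycin (adjusted p = 1.11e-09) and -0.77 ± 0.09 with iohexol (adjusted p = 6.51e-05). An antisense RNA that shares 136 exon bases with CDH2 had 0 to 8 counts per sample.

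CDH16, or Ksp-cadherin, is a kidney-specific cadherin of the tubular epithelium with a short tail that lacks the catenin-binding region. It lies on chromosome 16 (66908122 to 66918984, minus strand), overlaps no annotated gene and shares 0% of its 31-base sequences with other genes. The Control samples held 9.51, 12.5 and 12.1 CPM and the cisplatin samples 8.72, 7.82 and 8.15 CPM. The iohexol samples held 66.7, 59.6 and 46.8 CPM and the vancomycin samples 35.5, 32.8 and 30.7 CPM. The order was iohexol, vancomycin, Control and cisplatin, with no overlap between any of these groups, although the lowest Control sample was close to the highest cisplatin sample. The log2 fold change was 2.36 ± 0.16 with iohexol (adjusted p = 1.19e-06) and 1.49 ± 0.13 with vancomycin (adjusted p = 7.41e-10). It was -0.47 ± 0.14 with cisplatin (adjusted p = 0.007), a call that was lost when the samples were scaled by library size only (-0.25, adjusted p = 0.121). That scaling also moved the median over all genes tested with cisplatin from 0.0074 to 0.226 on the log2 scale.

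**Figure D2:**
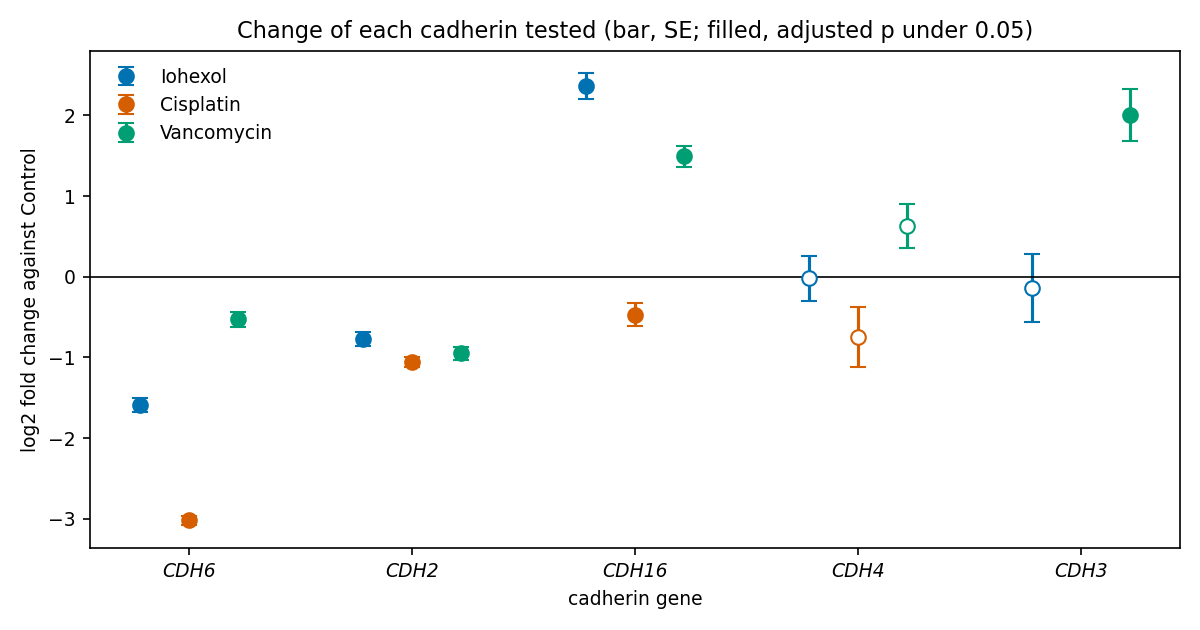
Log2 fold change of each tested cadherin against the same 3 Control samples, with its SE as a bar. Filled points had an adjusted p under 0.05. CDH6 and CDH2 lay below 0 for all 3 drugs, CDH16 was at 2.36 with iohexol and at -0.47 with cisplatin, and CDH3 has no point for cisplatin because it did not pass the filter there.

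CDH3, or P-cadherin, is a type I cadherin of placenta and basal epithelial layers. It lies on chromosome 16 (68636189 to 68722616, plus strand). The Control samples held 8, 15 and 25 counts (0.581, 0.941 and 1.64 CPM), and the iohexol samples 12, 14 and 17 counts (0.829, 0.895 and 1.14 CPM). The cisplatin samples held 1, 9 and 4 counts (0.0606, 0.554 and 0.236 CPM), and the vancomycin samples 58, 64 and 86 counts (3.63, 4.32 and 5.30 CPM). The vancomycin samples lay above all others, the cisplatin samples lay below all others, and the Control and iohexol ranges overlapped. The log2 fold change was 2.00 ± 0.32 with vancomycin (adjusted p = 9.87e-06) and -0.14 ± 0.42 with iohexol (adjusted p = 0.85). With vancomycin CDH3 passed the filter only through the group in which it was high, so that p is no independent support for the rise. With cisplatin CDH3 was not tested because of its low counts. Without the filter its log2 fold change there was -1.90 ± 0.54 (adjusted p = 0.00227), a value that rests on 14 counts in 3 samples. Of its 31-base sequences 14.9% also occur in another gene.

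CDH4, or R-cadherin, is a type I cadherin of retina, brain and the developing kidney. It lies on chromosome 20 (61252426 to 61940617, plus strand). Its level was 1.67, 2.45 and 2.17 CPM in the Control samples, 2.35, 2.11 and 1.67 CPM with iohexol, 1.88, 0.554 and 1.30 CPM with cisplatin, and 3.44, 2.63 and 3.94 CPM with vancomycin. The vancomycin samples lay above all others, and the other 3 groups overlapped. Against Control no drug gave an adjusted p under 0.05. The log2 fold change was 0.63 ± 0.27 with vancomycin (adjusted p = 0.054), -0.75 ± 0.37 with cisplatin (adjusted p = 0.0848) and -0.02 ± 0.28 with iohexol (adjusted p = 0.963). These values rest on 9 to 64 counts per sample.

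The other members were at or near the detection floor and were tested in no comparison. CDH1, or E-cadherin, the classical cadherin of most epithelia, had 0 to 8 counts per sample. Its highest group mean was 0.401 ± 0.075 CPM (SD, n = 3) with iohexol, and its lowest was 0.120 ± 0.121 CPM with cisplatin. CDH13, or T-cadherin, a member anchored by a lipid and without a cytoplasmic tail, had 0 to 9 counts, with group means of 0.0945 CPM in the Control, 0.135 in the iohexol, 0.222 in the cisplatin and 0.419 in the vancomycin group. Without the filter its log2 fold change with vancomycin was 2.07 ± 1.01 (adjusted p = 0.126). CDH11, or OB-cadherin, a cadherin of osteoblasts and fibroblasts, had 0 counts in all 12 samples, which allows a level of up to 0.0161 CPM over the samples together. CDH1 thus stood far below CDH2 in all 4 groups.

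Per kb of exon, CDH2 was the highest cadherin in the Control group at 54.9 ± 1.15 CPM per kb (SD, n = 3), followed by CDH6 at 42.0 ± 1.46 and CDH16 at 3.11 ± 0.45 CPM per kb. CDH4 at 0.285 and CDH3 at 0.169 CPM per kb followed with overlapping ranges, and CDH1 and CDH13 also overlapped. With iohexol CDH16 at 15.8 ± 2.76 and CDH6 at 13.8 ± 1.23 CPM per kb overlapped below CDH2 at 31.7 ± 2.46. With cisplatin the order was CDH2 at 26.4 ± 0.64, CDH6 at 5.18 ± 0.13 and CDH16 at 2.25 ± 0.13 CPM per kb, without overlap. CDH2 was thus the highest member in these 3 groups. With vancomycin CDH6 at 29.9 ± 2.42 and CDH2 at 29.2 ± 0.96 CPM per kb overlapped, and CDH16 at 9.02 ± 0.66 and CDH3 at 0.708 ± 0.134 CPM per kb followed. The order of the leading cadherins thus differed between the groups.

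The level summed over the 8 cadherins was 101 ± 1.88 CPM per kb (SD, n = 3) in Control, 69.4 ± 3.74 with vancomycin, 61.8 ± 0.86 with iohexol and 34.1 ± 0.90 with cisplatin. The share of CDH6 in this sum was 41.8% in Control, 43.1% with vancomycin, 22.3% with iohexol and 15.2% with cisplatin. The share of CDH16 was 3.10%, 13.0%, 25.6% and 6.61% in the same order of groups. CDH2 made up 77.4% with cisplatin and 42.2% with vancomycin. The ratio of CDH2 to CDH6 per kb was 1.31 ± 0.03 in Control, 2.31 ± 0.19 with iohexol, 5.09 ± 0.13 with cisplatin and 0.980 ± 0.053 with vancomycin. Its lowest and highest samples were 1.29 and 1.34, 2.11 and 2.48, 4.96 and 5.22, and 0.937 and 1.04, so that the groups did not overlap. These sums, shares and ratios are descriptions and were not tested.

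**Figure D3:**
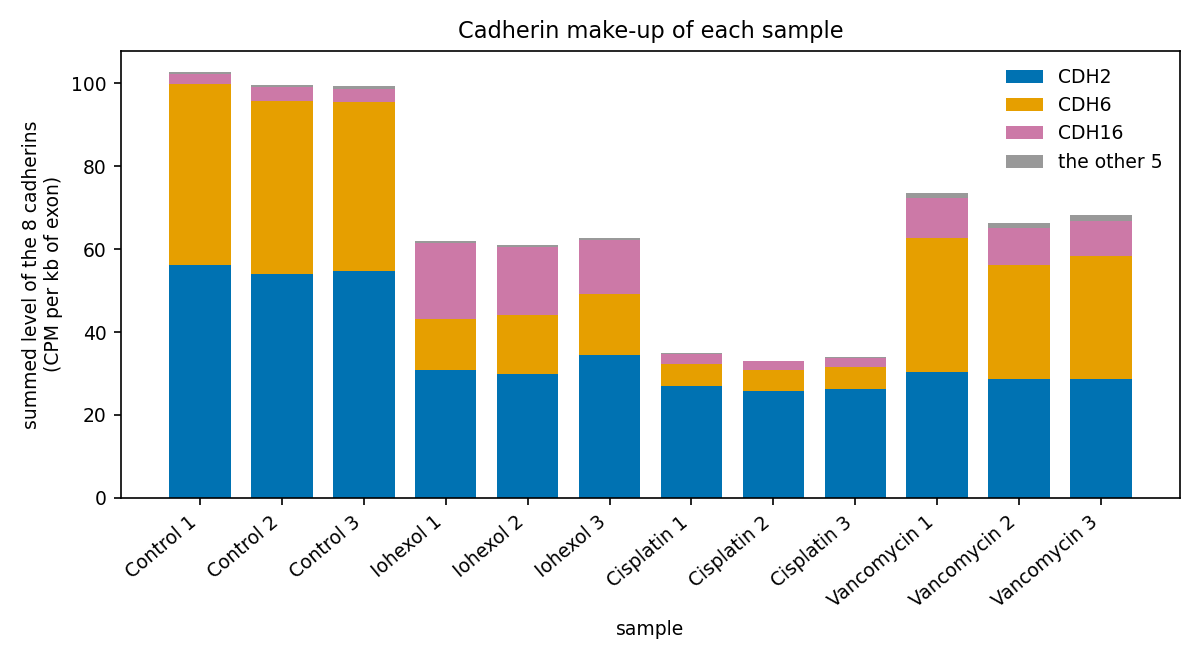
Summed level of the 8 cadherins in each of the 12 samples, in CPM per kb of exon, divided into CDH2, CDH6, CDH16 and the other 5. The bars of the cisplatin samples were the lowest, at 34.1 CPM per kb on average against 101 in Control, and CDH16 made up 25.6% of the iohexol bars.

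Differences between drugs were tested as contrasts in a fit of all 12 samples. Between iohexol and cisplatin 5 cadherins were tested, 4 were called higher with iohexol and 0 lower, while 27.9% of all genes were called higher and 26.0% lower. Between iohexol and vancomycin 1 of 5 was higher with iohexol and 2 were lower, against 27.6% and 29.0% of all genes. Between cisplatin and vancomycin 0 of 5 were higher with cisplatin and 4 were lower, against 30.0% and 34.7% of all genes.

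CDH6 differed between every pair of drugs. Its log2 difference was 1.41 ± 0.08 (SE) for iohexol minus cisplatin (adjusted p = 2.74e-11), -1.12 ± 0.08 for iohexol minus vancomycin (adjusted p = 4.97e-10) and -2.53 ± 0.09 for cisplatin minus vancomycin (adjusted p = 4.92e-15). CDH16 also differed between every pair, by 2.81 ± 0.14 (adjusted p = 1.89e-12), 0.81 ± 0.12 (adjusted p = 1.46e-05) and -2.0 ± 0.14 (adjusted p = 1.69e-10) in the same order. CDH3 was lower with cisplatin than with vancomycin by a log2 difference of -3.93 ± 0.45 (adjusted p = 2.12e-07) and lower with iohexol than with vancomycin by -2.20 ± 0.38 (adjusted p = 5.08e-05). Its difference of 1.73 ± 0.54 for iohexol minus cisplatin (adjusted p = 0.00998) was lost without Cisplatin replicate 1 (1.26, adjusted p = 0.055) and was 2.61 without Cisplatin replicate 2 (adjusted p = 0.00235). Without Cisplatin replicate 2 the difference for cisplatin minus vancomycin was -4.81 (adjusted p = 3.47e-07). CDH3 was thus highest with vancomycin in these contrasts.

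The differences of CDH2 between drugs were small beside those of CDH6. The log2 difference was 0.27 ± 0.07 for iohexol minus cisplatin (adjusted p = 0.00477), a call that was lost with scaling by library size only (0.14, adjusted p = 0.113). For iohexol minus vancomycin it was 0.12, with a nominal 95% interval of -0.03 to 0.27 (adjusted p = 0.177). With library size only it was called (0.33, adjusted p = 0.000746). For cisplatin minus vancomycin it was -0.15 ± 0.07 (adjusted p = 0.0892), and with library size only its sign turned (0.19, adjusted p = 0.0287). CDH4 was lower with cisplatin than with vancomycin by -1.42 ± 0.33 (adjusted p = 0.000796), and its other differences were 0.71 ± 0.34 for iohexol minus cisplatin (adjusted p = 0.0901) and -0.71 ± 0.31 for iohexol minus vancomycin (adjusted p = 0.058).

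**Figure D4:**
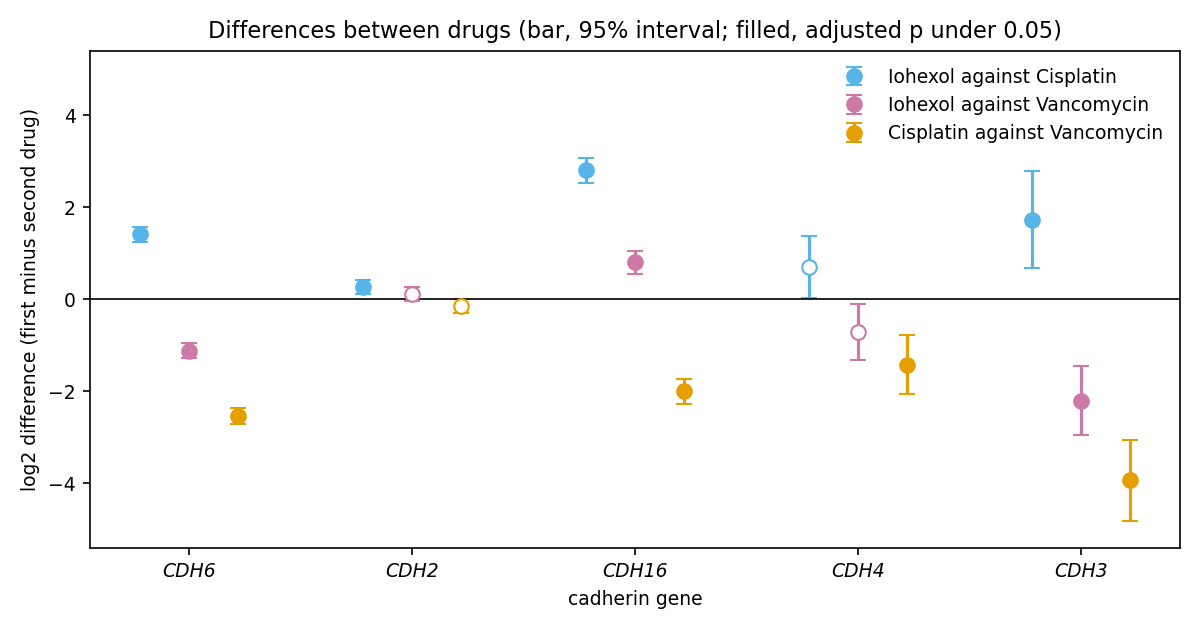
Log2 difference between drugs for 5 cadherins, as the first minus the second drug named, with nominal 95% intervals. The intervals use a normal approximation and are too narrow for so few samples. Filled points had an adjusted p under 0.05. For CDH2 all 3 differences lay between -0.15 and 0.27, while CDH3 reached -3.93 for cisplatin minus vancomycin.

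Of the 8 cadherins, 5 lie on chromosome 16. CDH3 ends 14608 bases before CDH1 on the same strand, and with vancomycin CDH3 reached 4.42 ± 0.84 CPM while CDH1 was at 0.212 ± 0.154 CPM (SD, n = 3). RRAD, a small GTPase gene 2694 bases from CDH16, had mean levels of 149.7 CPM in the Control, 102 in the iohexol, 188 in the cisplatin and 405 in the vancomycin group. PDP2, a phosphatase gene 12367 bases away on the other side, had 28.7, 47.4, 37.7 and 29.1 CPM in the same order of groups. In the iohexol group, where CDH16 had its highest level, RRAD thus had its lowest and PDP2 its highest level.

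The counts of the gene lists are to be read against the shares of all genes tested that were called higher and lower, which were 11.2% and 9.77% with iohexol, 29.2% and 30.6% with cisplatin, and 29.0% and 28.8% with vancomycin. As with the cadherins, a low gene that passed the filter only through the group in which it is high had to differ. The catenins and other adherens junction partners connect cadherin tails to actin. With iohexol 3 of the 20 tested partners rose and 4 fell, with cisplatin 6 of 20 rose and 9 fell, and with vancomycin 4 of 21 rose and 10 fell. Their median log2 fold changes were -0.12, -0.18 and -0.18, beside medians of 0.0122, 0.0074 and -0.0084 over all genes tested. VCL, which encodes vinculin, fell with all 3 drugs, by 0.62 on the log2 scale with iohexol (adjusted p = 0.000149), 0.73 with cisplatin (adjusted p = 1.41e-09) and 0.84 with vancomycin (adjusted p = 1.77e-08). CTNNA1, the α-catenin gene, fell by 0.26, 0.65 and 0.21 (adjusted p = 0.0354, 1.42e-08 and 0.0315). CTNNB1, which encodes β-catenin, had log2 fold changes of -0.20, -0.05 and -0.18 and was not called with any drug (adjusted p = 0.147, 0.51 and 0.069).

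Other partners had different values with different drugs. CTNND1, the p120 catenin gene, fell by 0.32 with iohexol and 0.33 with cisplatin on the log2 scale (adjusted p = 0.0135 and 0.000114) and had a log2 fold change of -0.01 with vancomycin (adjusted p = 0.957). JUP, which encodes plakoglobin, rose by 0.58 with iohexol and 0.52 with cisplatin (adjusted p = 0.00833 and 4.22e-06) and fell by 0.28 with vancomycin (adjusted p = 0.0104). PTPRM, a receptor phosphatase that binds cadherin complexes, fell by 2.41 with cisplatin (adjusted p = 7.86e-14) and was not called with iohexol (-0.12, adjusted p = 0.375) or vancomycin (0.05, adjusted p = 0.705). AJUBA, a LIM protein of junctions, rose by 0.31 with cisplatin (adjusted p = 0.000113) and fell by 1.54 with vancomycin (adjusted p = 2.86e-13).

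The desmosomal cadherins and plaque proteins form the junctions that anchor keratins. With iohexol 0 of 6 tested rose and 2 fell, with cisplatin 1 of 6 rose and 2 fell, and with vancomycin 2 of 7 rose and 2 fell, and the median log2 fold changes were -0.29, -0.14 and 0.06. With so few genes tested, 1 or 2 calls in a direction do not set this list apart from all genes. DSG2, a desmoglein of simple epithelia, fell by 0.40 on the log2 scale with iohexol (adjusted p = 0.0278). DSP, which encodes desmoplakin, fell by 1.26 with vancomycin (adjusted p = 1.01e-10), while DSC2, a desmocollin, rose by 0.79 (adjusted p = 6.32e-07).

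Of 23 other cadherins and related receptors, 10 were tested. The numbers that rose and fell were 1 and 2 with iohexol, 2 and 5 with cisplatin, and 3 and 3 with vancomycin, and the median log2 fold changes were -0.02, -0.44 and 0.27. CDH17, the LI-cadherin of intestine that is the nearest relative of CDH16, rose by 0.63 on the log2 scale with iohexol (adjusted p = 0.0217) and by 0.47 with vancomycin (adjusted p = 0.0176) and fell by 1.44 with cisplatin (adjusted p = 5.27e-06). Its mean level was 6.85 CPM in the Control, 10.5 in the iohexol, 2.52 in the cisplatin and 9.78 in the vancomycin group. CELSR1, a planar polarity receptor, fell with all 3 drugs, by 0.36, 2.09 and 0.62 (adjusted p = 0.0248, 1.83e-13 and 7.09e-06).

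Of 22 protocadherins and FAT family genes, 10 were tested. With iohexol 2 rose and 0 fell, with cisplatin 4 rose and 4 fell, and with vancomycin 1 rose and 6 fell, with median log2 fold changes of 0.13, 0.04 and -0.52. FAT1, a giant cadherin of epithelial cell borders, fell by 1.23 on the log2 scale with cisplatin (adjusted p = 2.06e-12) and by 1.63 with vancomycin (adjusted p = 6.62e-11). PCDH1 rose by 2.02 with iohexol (adjusted p = 2.07e-07) and fell by 0.70 with vancomycin (adjusted p = 0.000229).

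Repressors of cadherin transcription such as the Snail, ZEB and Twist factors are known for silencing CDH1. With iohexol 0 of 8 tested rose and 1 fell, with cisplatin 2 of 8 rose and 4 fell, and with vancomycin 4 of 9 rose and 1 fell, and the median log2 fold changes were -0.22, -0.14 and 0.59. SNAI2, which encodes Slug, went from 6.42 CPM in Control to 45.0 CPM with vancomycin, a log2 fold change of 2.76 (adjusted p = 8.01e-15). With vancomycin SNAI1 rose by 0.97, ZEB2 by 0.94 and TWIST1 by 0.59 (adjusted p = 7.9e-08, 3.55e-07 and 0.00104). TCF3 fell by 0.63 with vancomycin (adjusted p = 2.82e-06), and ZEB1 was at 0.01 (adjusted p = 0.969). With cisplatin SNAI1 rose by 0.72 and TWIST1 by 0.97 (adjusted p = 2.57e-06 and 4.17e-06), while TCF4 fell by 1.37, SNAI2 by 0.47, ZEB1 by 0.43 and TCF3 by 0.38 (adjusted p = 1.24e-06, 0.0283, 0.00146 and 0.000123).

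**Figure D5:**
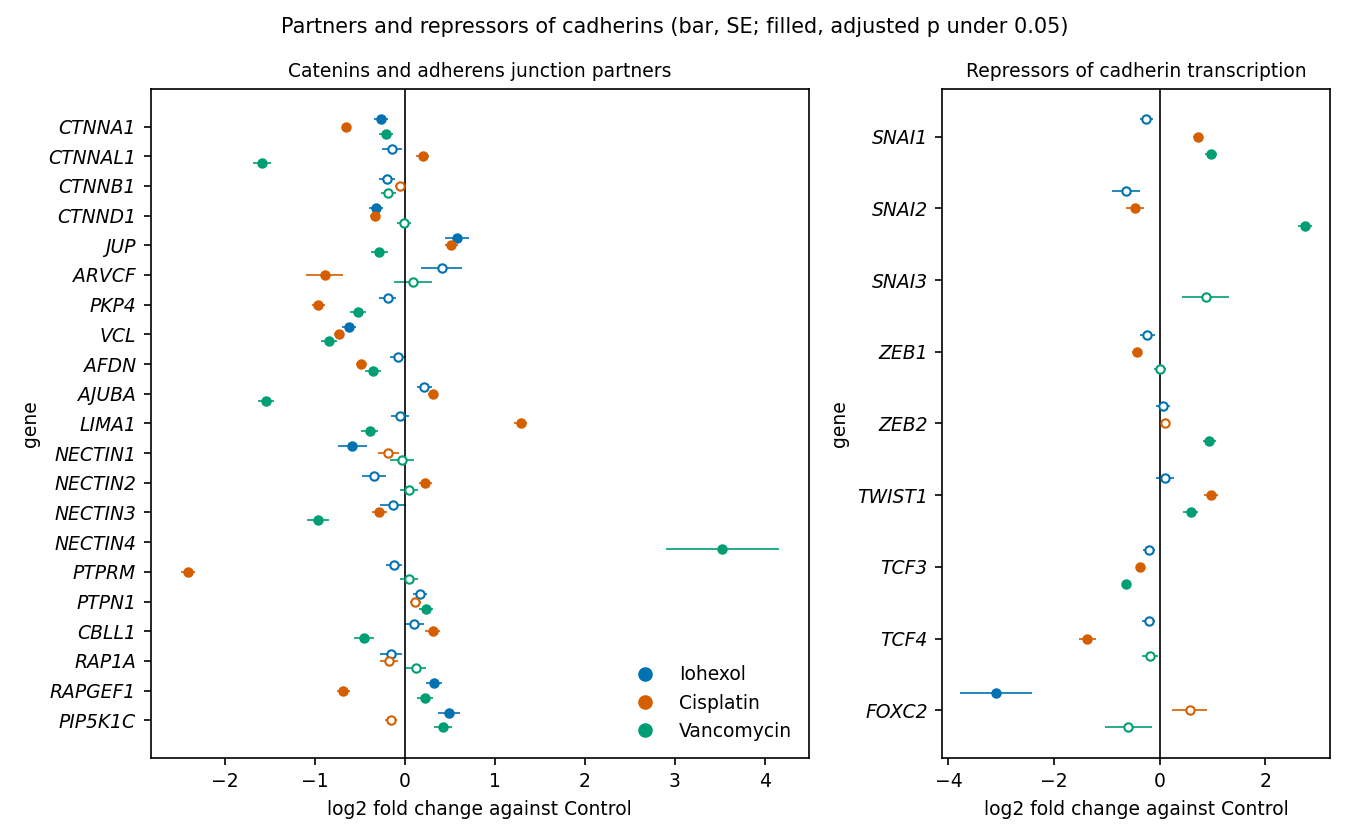
Log2 fold changes against Control, with SE, of adherens junction partners (left) and repressors of cadherin transcription (right) that had a mean of at least 1 CPM in some group. Filled points had an adjusted p under 0.05. VCL and CTNNA1 lay below 0 with all 3 drugs, and SNAI2 stood at 2.76 with vancomycin.

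Of 12 transcription factors that favour epithelial genes, 2 of 6 tested rose and 1 fell with iohexol, 4 of 7 rose and 2 fell with cisplatin, and 2 of 6 rose and 4 fell with vancomycin. The median log2 fold changes were -0.04, 0.30 and -1.04. KLF4, a zinc finger factor of epithelial differentiation, rose with all 3 drugs, by 0.98, 1.92 and 1.73 on the log2 scale (adjusted p = 0.0006, 2.76e-10 and 5.14e-10).

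Proteases of the ADAM, matrix metalloproteinase, calpain and γ-secretase families can cleave cadherins. The list counted here also held cathepsins and HTRA1, which belong to none of these families. With iohexol 2 of 17 tested rose and 3 fell, with cisplatin 2 of 17 rose and 13 fell, and with vancomycin 13 of 18 rose and 2 fell, with median log2 fold changes of -0.07, -0.52 and 0.63. ADAM10, the main sheddase of N- and E-cadherin, fell by 1.2 on the log2 scale with cisplatin and by 0.93 with vancomycin (adjusted p = 1.6e-10 and 1.13e-08). MMP7, or matrilysin, rose by 2.83 with vancomycin (adjusted p = 9.27e-17) and fell by 1.88 with iohexol (adjusted p = 6.81e-07). HTRA1 fell by 2.81 with cisplatin (adjusted p = 5.09e-12) and rose by 1.19 with iohexol (adjusted p = 6.66e-06) and by 1.22 with vancomycin (adjusted p = 2.64e-10).

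Markers of cell types moved beside these changes. The summed level of the 12 proximal tubule markers was 506 to 639.8 CPM in the Control, 674 to 895 in the iohexol, 316 to 337 in the cisplatin and 764 to 854 in the vancomycin samples. With iohexol 4 of the 6 tested rose and 0 fell, with cisplatin 0 of 5 rose and 2 fell, and with vancomycin 3 of 7 rose and 0 fell. PAX8 and GGT1, a γ-glutamyltransferase of the brush border, made up most of this sum and did not move together. PAX8 rose with iohexol (372 to 617 CPM, log2 fold change 0.75, adjusted p = 0.000676) and fell with cisplatin by 1.5 on the log2 scale (adjusted p = 1.02e-11), and its log2 fold change with vancomycin was 0.09 (adjusted p = 0.429). GGT1 rose with vancomycin (189.5 to 363 CPM, log2 fold change 0.89, adjusted p = 3.61e-08) and was not called with iohexol (-0.34, adjusted p = 0.136) or cisplatin (-0.16, adjusted p = 0.104). Of 8 fibroblast markers, 5 had a mean of at least 1 CPM in some group and none was at 0 in all samples. COL1A2, COL3A1 and POSTN were near the floor, with largest group means of 0.103, 0.156 and 0.191 CPM. The sum of all 8 was 116 to 129 CPM in the Control, 107 to 116 in the iohexol, 105 to 109 in the cisplatin and 244 to 279 in the vancomycin samples. With vancomycin 5 of the 5 tested fibroblast markers rose and 0 fell. Of the comparisons against Control, ACTA2 at 0.309 CPM in Control passed the filter only in that with vancomycin. PDGFRB at 0.607 CPM in Control did not pass it with iohexol. With iohexol 0 of 3 rose and 1 fell, and with cisplatin 2 of 4 rose and 2 fell.

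The other marker lists were lower or moved less. The 10 markers of epithelium and kidney lineage summed to 1472 to 1646 CPM in the Control, 1435 to 1719.7 in the iohexol, 1671 to 1730.3 in the cisplatin and 1859 to 1935 in the vancomycin samples. The 9 markers of other tubule segments, with FOXI1 at 0 in all samples, summed to at most 4.92 CPM in any sample. The 7 endothelial markers reached at most 4.63 CPM and the 6 leukocyte markers at most 2.06 CPM. The part of the marker changes in the cadherin results was not tested.

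The genes whose log2 CPM followed each cadherin most closely were named by Pearson's r over the 12 samples, among 12664 protein-coding genes with a mean of at least 1 CPM. The 12 points fall into 4 groups of 3 that share their treatment, and r is a description. For CDH6 they were ANTXR1 (r = 0.989), MAP3K4 and AREL1, and for CDH2 SCEL (r = 0.986), SFPQ and TGFBR2. For CDH16 they were DEPTOR (r = 0.983), CPE and NOV. DEPTOR had mean levels of 4.07 CPM in the Control, 32.9 in the iohexol, 2.23 in the cisplatin and 12.0 in the vancomycin group. It was chosen by its r with CDH16, so the order of groups it shares with CDH16 is no further result. For CDH3 they were ERICH1 (r = 0.966), PEF1 and UBA7, and for CDH4 LRIG1 (r = 0.925), TMEM255B and ZBTB12.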

How the data were processed

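The authors deposited whole-number counts of reads on 58735 genes in 12 samples, without normalization. Libraries were poly(A)-selected and made with an NEBNext kit per the labels. The submitters' processing notes name CASAVA 1.8, fastp, HISAT2 2.0.5, featureCounts 1.5.0-p3 and DESeq2 1.20.0. The strand setting and annotation release are not given in the sources used here. All 58735 gene identifiers matched GENCODE release 29 on GRCh38 with the same start, end and strand, which gave the positions. The deposited gene length was used for CPM per kb.

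Groups came from the sample labels. From the counts, edgeR 4.0.16 in R 4.3.3 (TMM, estimateDisp, glmQLFit, glmQLFTest) was run on the 3 samples of a drug and the 3 Control samples, and drugs were compared in a fit of all 12. Genes passed filterByExpr (minimum count 10, minimum total 15). Benjamini-Hochberg adjustment covered all genes tested, and the SE is the size of the log2 fold change divided by the square root of F. The steps were tested on simulated counts. Intervals of log2 values are nominal 95% intervals, the SE times the normal quantile. They are too narrow for so few samples and can leave out 0 where the unadjusted p of the quasi-likelihood test is above 0.05. For CDH4, iohexol minus cisplatin, the interval was 0.03 to 1.38 and that p was 0.0534. Floors cover counting error only, as no molecular identifiers are described. Replicates differed by more than sampling noise (chi-square per degree of freedom 2.34 to 17.5). The labels do not say whether the replicate numbers pair the samples. Samples of the same number shared no deviation on average, and the fits reported first have no block.

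The members and gene lists were chosen with earlier results of these data known. Named were the 8 cadherins, repressors, catenins and desmosomal genes with at least 1 CPM in some group, up to 3 called genes in each direction of every other list per drug, and the 3 genes most like each tested cadherin by r of log2 CPM (prior count 2). Some genes that this rule covers are not reported here. Genomic neighbours and defining markers named beside these were picked with their values seen. Shared sequence was the percent of 31-base sequences, taken every 5 bases of the annotated transcripts, that occur in another gene. Alternatives were DESeq2 1.42.0, limma-voom (limma 3.58.1), RLE factors, library size only, other filters, other samples in the fit, the replicate number as a block, the fold limit and leaving out each sample. Figures were drawn with matplotlib 3.10.9.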

Additional observations from a re-analysis of the deposited data

How the results depend on the processing

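CDH6 and CDH2 were called lower with every drug, CDH16 was called higher with iohexol and vancomycin, and CDH3 higher with vancomycin, under all alternatives in which they were tested (13 or 14 each). CDH3 was not tested with vancomycin where every sample needed at least 10 counts, as Control replicate 1 held 8. In the fit reported first it passed the filter only through the vancomycin samples. The log2 fold changes ranged from -3.06 to -2.80 for CDH6 with cisplatin and from 2.24 to 2.49 for CDH16 with iohexol. Over all settings 443 log2 fold changes or differences kept their side of the threshold, 12 passed it, 3 lost it and 5 turned sign.

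Leaving out samples in turn gave log2 fold changes of -0.41 to 0.31 for CDH3 with iohexol (0.31 without Control replicate 3) and -0.16 to 0.10 for CDH4 with iohexol (0.09 without Control replicate 2 and 0.10 without Iohexol replicate 3). With cisplatin it gave 3 to 5 called cadherins, the 5 without Control replicate 1, where CDH3 passed the filter and CDH4 was also called (-0.89, adjusted p = 0.0442). CDH4 with cisplatin was also called without Cisplatin replicate 1 (-1.17) and by limma-voom (-0.89, adjusted p = 0.0484), and with vancomycin without Vancomycin replicate 2 (0.77). With the fold limit 2 cadherins were called with vancomycin in place of 4. With library size only, CDH4 with iohexol was at 0.05 and CDH2 for cisplatin minus vancomycin at 0.19. The same scaling moved the median over all genes tested from 0.0122 to 0.0836 with iohexol and from -0.0329 to 0.302 for cisplatin minus vancomycin. In both cases the cause was not tested.

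Library size only also moved the median log2 value of all genes, to 0.226 with cisplatin and to -0.132, 0.224 and 0.302 for iohexol minus cisplatin, iohexol minus vancomycin and cisplatin minus vancomycin. The genes called higher and lower became 2237 and 1078 with iohexol (from 1754 and 1529), 6929 and 3241 with cisplatin (from 4643 and 4857) and 4028 and 5215 with vancomycin (from 4595 and 4563). Between drugs they became 3950 and 5643 for iohexol minus cisplatin (from 4770 and 4447), 6676 and 3505 for iohexol minus vancomycin (from 4711 and 4956) and 7816 and 3952 for cisplatin minus vancomycin (from 5121 and 5927).

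After subtraction of the group means, the mean r was -0.0209 over the 18 pairs of samples that share a number and 0.0106 over the other 36 pairs. The deviations within a group sum to 0, so these means depend on each other and are no separate evidence. With the replicate block 3, 3 and 4 cadherins were called with iohexol, cisplatin and vancomycin and 4, 3 and 4 between drugs, and no call of a cadherin changed. Over all genes the block gave 1181 higher and 915 lower with iohexol, in place of 1754 and 1529. Leaving out Control replicate 2, Control replicate 3 or Iohexol replicate 2 gave 1027 and 822, 1159 and 1068, and 1123 and 988. Leaving out Iohexol replicate 3 raised the calls to 2377 and 2167. That sample differed more from Iohexol replicates 1 and 2 (chi-square per degree of freedom 17.5 and 16.5) than these did from each other (3.82). The fit of all 4 groups gave 2100 and 2294. With at least 10 counts in every sample 1691 genes passed the fold limit with cisplatin, in place of 2594. CDH1, CDH11 and CDH13 were too low for any comparison at this depth.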
